A study of Mus musculus with 2 samples.

Results

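Globin transcripts were followed through 2 deposited quantifications of total RNA from mouse adrenal gland. The set held 10 of the 55536 annotated genes, taken by symbol. They were the adult alpha globins Hba-a1 and Hba-a2, the embryonic alpha-like globin Hba-x, the adult beta globins Hbb-bs and Hbb-bt, the embryonic beta-like globin Hbb-y, the erythroid heme enzyme Alas2, and the globins of other tissues Mb, Cygb and Ngb. All 10 symbols were found in both quantifications. The set was chosen on earlier values of these libraries, the counts and TPM of the globins in each animal and their non-whole counts, so its levels and differences are given as a description.

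The tissue was taken from B6CASTF1/J females aged 2 months, F1 mice with a C57BL/6J and a CAST parent, with no treatment or allele named in the labels. There was 1 group of 2 libraries, called animal 1 and animal 2 after the labels' biological replicate numbers. Other label fields conflict on whether the animals were different, so the spread between the libraries may be technical. The libraries held 34517566 and 36234838 expected counts, estimated numbers of reads that need not be whole, and 13254 and 13316 genes reached 1 TPM (a level per length, as a share of all transcripts). A gene at 0 may hide up to 3 counts, which is 0.0877 CPM, a share of all counts scaled like TPM, in animal 1 and 0.0834 CPM in animal 2. With 1 group of 2 libraries no p-value was computed, and the 95% intervals of ratios and these limits cover counting error only. The adrenal label was met by its markers. Star, which brings cholesterol into mitochondria, stood at 4122 and 4634 TPM, Hsd3b1, a steroid dehydrogenase, at 3691 and 4620 TPM, and Pnmt, the adrenaline-making enzyme, at 151 and 109 TPM.

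Hemoglobin of adult red cells is a tetramer of alpha and beta globin chains, each of which holds a heme. Alpha-like and beta-like genes lie in separate clusters in which embryonic and adult genes sit side by side, and the adult genes of each cluster arose by duplication. Reticulocytes, the youngest red cells of the blood, have no nucleus but still carry globin mRNA, so RNA from an organ that was not bled free holds it as well. In bulk RNA, fewer cells of a type and less RNA per cell cannot be told apart.

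Both adult alpha genes lie on chromosome 11 of mm10 on the plus strand, Hba-a1 (ENSMUSG00000069919.7) at chr11:32283511-32284465 and Hba-a2 (ENSMUSG00000069917.7) at chr11:32296489-32297298. The adult beta genes lie on chromosome 7 on the minus strand, Hbb-bs (ENSMUSG00000052305.6) at chr7:103826534-103828096 and Hbb-bt (ENSMUSG00000073940.3) at chr7:103812524-103813996. The longest annotated transcript of each of these 4 genes holds its whole coding sequence and is called its full transcript here. The coding sequences of Hba-a1 and Hba-a2, both of 429 bases with the stop codon, differed at 1 base, C381T, counted from the A of the start codon. It is the last base of codon 127 and leaves aspartate in place (GAC in Hba-a1, GAT in Hba-a2). Hbb-bs and Hbb-bt, of 444 coding bases, also differed at 1 base, C417T, the last base of codon 139, with alanine in both (GCC in Hbb-bs, GCT in Hbb-bt). The windows of 41 bases below are shown because they hold, in capitals, the only coding base that tells the genes of each pair apart in the reference. They lie in exons, at chr11:32284323-32284363, chr11:32297140-32297180, chr7:103826672-103826712 and chr7:103812663-103812703 of mm10.
Hba-a1: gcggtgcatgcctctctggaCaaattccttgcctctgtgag
Hba-a2: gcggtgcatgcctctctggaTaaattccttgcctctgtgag
Hbb-bs: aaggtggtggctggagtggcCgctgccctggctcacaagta
Hbb-bt: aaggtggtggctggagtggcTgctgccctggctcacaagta

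A read inside the coding part could therefore be placed by its sequence only where it covered that base. These mice also carry CAST alleles, whose sequence was not analysed here, so these bases are known to differ between the genes only in the reference, and the shares of each gene given further on carry that doubt. Outside the coding part, the annotated ends of the transcripts differed. The full transcript of Hba-a1, of 699 bases, began 161 bases upstream of the RefSeq start of its gene, whereas that of Hba-a2, of 554 bases, began 3 bases upstream. The 35 bases before the start codon of Hba-a2 and the first 74 bases after its stop codon were identical to those of Hba-a1. The Hba-a2 transcript ran on for 16 more bases at its 3' end. What set the annotated alpha transcripts apart in the reference was thus the upstream extension of Hba-a1, the short tail of Hba-a2 and 1 coding base. The extension is a difference of annotation only. It lies within a stretch around the RefSeq starts where the 2 genes were identical at all 297 positions compared. A read inside the extension could therefore not tell the alpha genes apart by its sequence. In the beta pair the ends differed more, from the first base after the stop codon on, and 14 identical bases preceded the start codon. The full transcript of Hbb-bt, of 703 bases, began 73 bases upstream of its RefSeq start, and that of Hbb-bs, of 628 bases, began exactly on it.

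**Figure D1:**
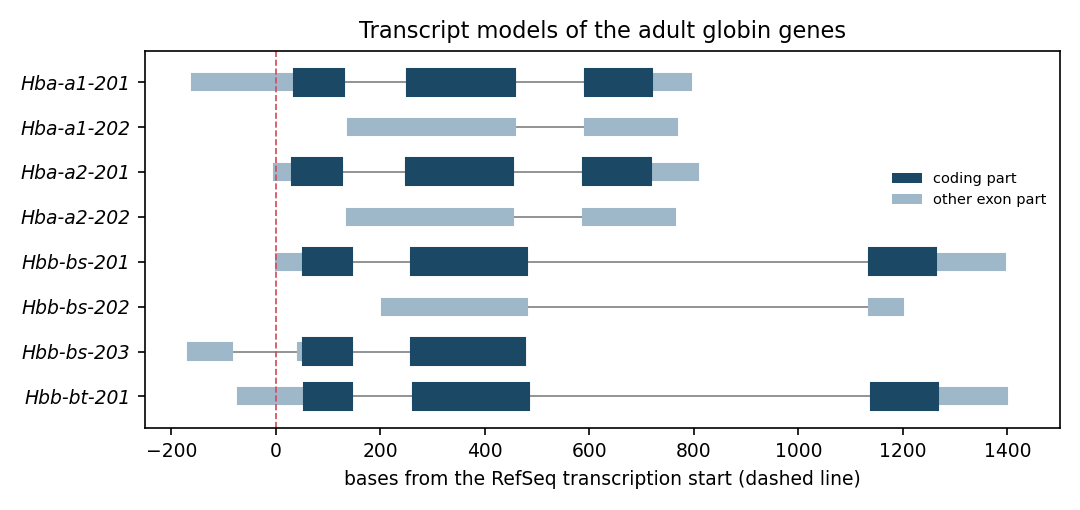
Exons of the annotated transcripts of the 4 adult globin genes, drawn against the distance in bases from the RefSeq transcription start (dashed line), with coding parts dark and tall and other exon parts pale; grey lines are introns. The full transcripts of Hba-a1 and Hbb-bt reach upstream of the start by 161 and 73 bases, and the second model of each alpha gene holds an intron stretch and has no coding part.

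The share of sequence that each gene holds in common with other genes was counted in words of 31 bases, taken from every annotated transcript. Of the 635 words of Hba-a2, 588 (92.6%) also occurred in another gene, which left 47 of its own. Hba-a1 shared 75.5% of its words, Hbb-bt 59.4% and Hbb-bs 54.4%. Only annotated transcripts were searched, so the upstream extension of Hba-a1 counts as its own although the same bases lie upstream of Hba-a2. Over windows of 100 bases the shares were 79.5% for Hba-a2, 63.3% for Hba-a1, 54.8% for Hbb-bt and 49.7% for Hbb-bs. The alpha words recurred in the partner gene and in the pseudogene Hba-ps4, and the beta words only in the partner. Hba-x, Hbb-y, Alas2, Mb, Cygb and Ngb shared no word with another gene at either length. By coding sequence the embryonic genes were further off, with 62% of bases identical between Hba-x and Hba-a1 and 74.3% between Hbb-y and Hbb-bs.

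The promoters of the globin genes were compared in the RefSeq sequences for GRCm38.p6. Over 297 bases around the start, Hba-a1 and Hba-a2 were identical at all 297 positions when shifted by 3 bases. Hbb-bs and Hbb-bt were identical at 185 of 239 aligned positions, with 22 gap positions. The core promoters below are shown because the adult genes among them were detected and the embryonic genes were not. Each sequence runs from 45 to 16 bases before the RefSeq start, with the letters ATATAA, where present, in capitals. The windows lie at chr11:32283627-32283656, chr11:32296447-32296476 and chr11:32276555-32276584 on the plus strand, and at chr7:103827944-103827973, chr7:103813939-103813968 and chr7:103853223-103853252 on the minus strand.
Hba-a1: acacgcccttggagggcATATAAgtgctac
Hba-a2: cgcccttggagggcATATAAgtgctacttg
Hba-x: gtccctgaccatgtgtATATAAaggagaca
Hbb-bs: gagccagggcagagcATATAAggtgaggta
Hbb-bt: ggagccagcattgggtATATAAagctgagc
Hbb-y: aacattgtctgtgaagcataaaaggccacc

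ATATAA, searched on the gene's strand in this window, was found in 5 of the 6 globin promoters, including that of Hba-x, and in 1.32% of 32851 promoters. Over the 250 bases before the start, on both strands, CCAAT was found in all of these promoters but that of Hba-x (33.9% of all promoters) and CACCC in all 6 (52% of all promoters). TGATAA was found in Hba-a1, Hba-a2, Hba-x and Hbb-y (7.94% of all promoters), and AGATAA in Hbb-bs (9.99%) and also in Alas2. These matches are letters in a window, and binding was not measured.

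The adult globins were abundant and the embryonic globins were not detected. In the RSEM gene table, the summed level of Hba-a1 and Hba-a2 was 708 TPM in animal 1 and 1413 TPM in animal 2, a mean of 1060 ± 498 TPM (SD, n = 2). It ranked 12th among nuclear protein-coding genes, between Actb (cytoskeletal actin, 1104 ± 244 TPM) and Akr1b7 (an aldo-keto reductase of the adrenal cortex, 1033 ± 6.26 TPM). These neighbours did not differ from the alpha sum beyond its spread.

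The summed level of Hbb-bs and Hbb-bt was 419 TPM in animal 1 and 573 TPM in animal 2, a mean of 496 ± 109 TPM, rank 52. Fads2, a fatty acid desaturase, stood just above it at 497 ± 69.3 TPM, and Eef2, a translation elongation factor, just below it at 480 ± 5.06 TPM. Neither differed from the beta sum beyond the spread. The 4 adult genes held 0.0619% of gene counts in animal 1 and 0.0949% in animal 2.

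Gene by gene, Hba-a1 stood at 416 TPM in animal 1 and 820 TPM in animal 2, and Hba-a2 at 293 and 592 TPM. Hbb-bs was listed at 377 and 531 TPM, and Hbb-bt at 42.1 and 41.8 TPM. Animal 2 was the higher library for Hba-a1, Hba-a2 and Hbb-bs, and the libraries were close for Hbb-bt. The mean levels of Hba-a1 (618 ± 286 TPM), Hbb-bs (454 ± 109 TPM) and Hba-a2 (442 ± 212 TPM) did not differ beyond their spread. Hbb-bt, at 41.9 ± 0.205 TPM, lay below all of these in each library.

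Cygb, encoding cytoglobin, a globin of fibroblasts and other connective tissue cells, stood at 8.53 and 8.59 TPM (8.56 ± 0.0424 TPM). Alas2, which catalyses the first committed step of heme synthesis in red cell precursors, stood at 5.33 and 8.6 TPM (6.96 ± 2.31 TPM), so that the order of Cygb and Alas2 changed between the libraries. Ngb, encoding neuroglobin of neurons, stood at 0.93 and 0.66 TPM (0.795 ± 0.191 TPM). Mb, encoding myoglobin, the oxygen store of heart and skeletal muscle, stood at 0.26 and 0.63 TPM (0.445 ± 0.262 TPM). The last pair overlapped within the spread, on 43 and 33 counts of Ngb and 6 and 15 counts of Mb. Hba-x at chr11:32276400-32278116 and Hbb-y at chr7:103851749-103853216, the globins of yolk sac red cells, had 0 counts in both libraries under both quantifications. In the other globin genes and pseudogenes of these clusters, 7 of the 8 found in the annotation were also at 0, Hbq1a and Hbb-bh1 among them, and Hbq1b, a theta globin, had 1 and 4 counts.

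**Figure D2:**
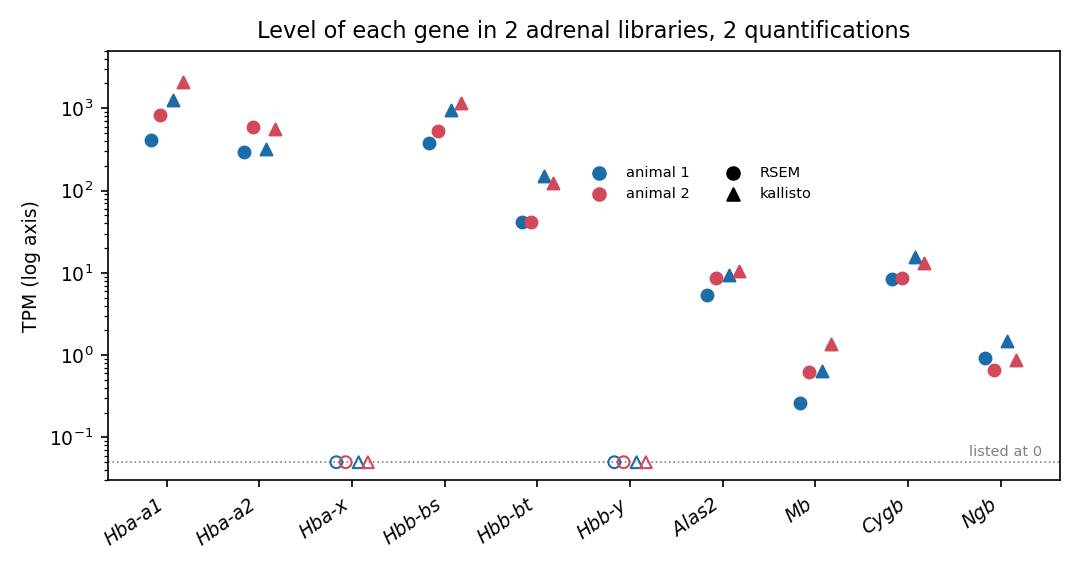
Level of each gene in TPM on a log axis, with animal 1 in blue, animal 2 in red, RSEM as circles and kallisto as triangles; open symbols on the dotted line are listed at 0. The adult globins except Hbb-bt lie between 293 and 2085 TPM, Hbb-bt lies between 41.8 and 152 TPM, and Hba-x and Hbb-y are at 0.

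The animals were then compared through counts scaled by edgeR's trimmed mean of M-values. The alpha sum held 13350 counts in animal 1 and 24039 in animal 2, and the scaled ratio of animal 2 to animal 1 was 1.78 (95% interval 1.74 to 1.82). The beta sum held 7820 and 10104 counts, a ratio of 1.28 (1.24 to 1.32). Animal 2 was higher for each sum, and the alpha excess was the larger. The ratio of alpha to beta counts was 1.39 times as high in animal 2 (1.34 to 1.44), with counting error only.

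Within the pairs, Hba-a1 had 8692 and 15139 counts (ratio 1.72, 1.68 to 1.77) and Hba-a2 had 4658 and 8900 counts (1.89, 1.82 to 1.96). Both alpha genes were higher in animal 2 by more than 1.5-fold, with all transcripts of each gene counted. The full transcript of Hba-a1 alone had 8632 and 12985 counts. Under this scaling Hba-a1 passed 1.5-fold only with its other transcript counted, which had 59.4 and 2154 counts. Hbb-bs had 6932 and 9271 counts (1.32, 1.28 to 1.36), while Hbb-bt had 888 and 833 counts (0.928, 0.843 to 1.02). The beta genes thus did not move alike: Hbb-bs was higher in animal 2, and the RSEM interval of Hbb-bt included 1. By kallisto counts Hbb-bs had a ratio of 1.449 (1.404 to 1.495). That of Hbb-bt was 0.91 (0.844 to 0.981), an interval below 1. These intervals do not hold the error of dividing shared reads between the genes of a pair.

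Alas2, at chrX:150547375-150570638, had 333 and 446 counts, at a ratio of 1.32 (1.15 to 1.53). It was thus higher in animal 2, as Hbb-bs was. Cygb, at chr11:116645595-116654313 on the minus strand, had 666 and 633 counts (0.94, 0.842 to 1.05). Ngb, at chr12:87097531-87102539 on the minus strand, had a ratio of 0.762 (0.467 to 1.22), and Mb, at chr15:77015487-77050670 on the minus strand, had a ratio of 2.36 (0.907 to 7.78). The intervals of Cygb, Ngb and Mb all included 1, so no difference was detectable at this depth. Alas2 overlaps Apex2 and Mir3620, Mb overlaps Apol6 and Gm49540, and Cygb overlaps Prcd, each on the opposite strand. The sources used here do not give the strand setting of the counting, so these counts are uncertain to that extent.

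Among the 8 genes of the set averaging at least 10 counts, 5 were higher in animal 2, against 47.8% of all 17308 such genes. Of these, 1 gene, Mb, was more than 2-fold higher, against 2.67%, with 5.28% of genes over 2-fold apart in either direction. Of the 6 genes averaging at least 100 counts, Hba-a1 and Hba-a2 were more than 1.5-fold higher, against 2.43% of 12171 genes, and none was over 2-fold apart, against 1.37%. Since the set was chosen with these values known, nothing is read from the counts. Scaling by the ERCC spike-ins shifted the median of all genes by 0.20 on the log2 scale towards animal 2. Under that scaling the alpha sum was 2.05-fold and the beta sum 1.47-fold higher in animal 2, and Hbb-bt and Cygb changed side, to 1.07 and 1.08.

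The alpha to beta ratio per length was 1.69 in animal 1 and 2.47 in animal 2 from RSEM TPM, a mean of 1.03 ± 0.39 on the log2 scale. From kallisto TPM it was 1.4 and 2.06, and from RSEM counts 1.71 and 2.38. Alpha exceeded beta in both libraries under each of these measures, and animal 2 had the higher ratio each time. When only the full transcripts were summed, the RSEM TPM ratio was 1.7 and 2.18. The gap between the animals was then narrower, 1.28-fold instead of 1.46-fold.

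**Figure D3:**
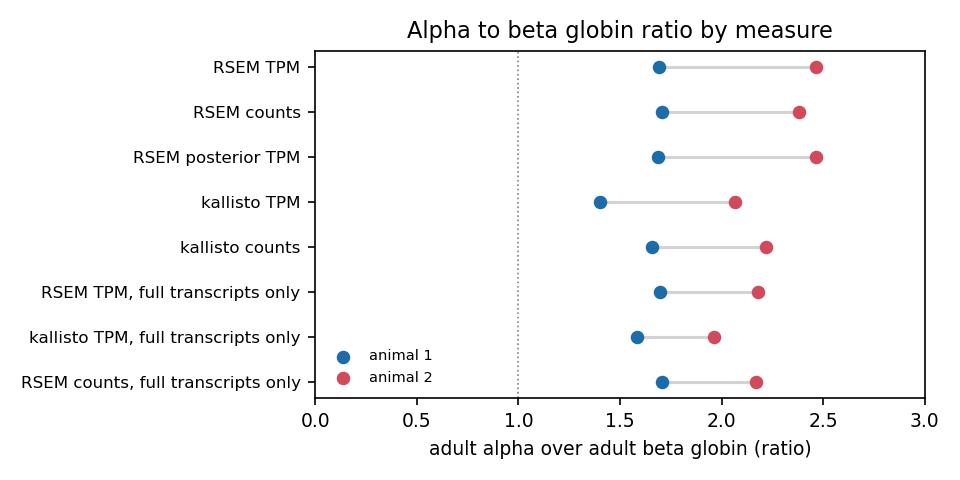
Ratio of summed Hba-a1 and Hba-a2 to summed Hbb-bs and Hbb-bt in each library (animal 1 blue, animal 2 red), for each measure on the vertical axis; the dotted line marks equal amounts. Animal 1 lies between 1.4 and 1.71 and animal 2 between 1.96 and 2.47.

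The main transcript left out by that sum is the retained-intron model of Hba-a1, at chr11:32283811-32284438. It has 494 bases, 113 of them from the first intron, and differs at 1 base from the retained-intron model of Hba-a2. RSEM gave it 59.4 counts in animal 1 and 2154 counts in animal 2, which was 1.03% and 20.1% of the TPM of Hba-a1. In kallisto it had 0 and 1153 counts. The retained-intron model of Hba-a2 was at 0 in both libraries under both quantifications. The posterior SD of the RSEM count of the Hba-a1 model, the authors' deposited estimate of the error of dividing reads, was 29.6 in animal 1 and 167 in animal 2. Both quantifications thus placed reads on this model mainly in animal 2. Of 9703 retained-intron transcripts in 3519 genes with at least 1000 counts on average, 348 (3.59%) moved by over 10 percentage points between the libraries, and 81 moved by at least the 19.1 points of the Hba-a1 model. Of those 348, 237 moved up in animal 2, the direction of the Hba-a1 model, and the part of this lean in the result was not tested. Leaving both retained-intron models out, the alpha sum was 1.63-fold higher in animal 2.

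The 2 quantifications, RSEM on transcriptome alignments and kallisto on a transcript index, were compared next. For the alpha sum they gave nearly the same number of counts: 13350 and 13321 in animal 1, 24039 and 25058 in animal 2. They divided it differently. Hba-a1 held 65.1% of the alpha counts in animal 1 by RSEM (exact Clopper-Pearson 95% interval 64.3% to 65.9%) and 63% in animal 2 (62.4% to 63.6%), but 86.3% and 84.9% by kallisto. The gap between the quantifications exceeded that between the animals. The RSEM intervals treat the gene of each read as known and leave out the error of dividing shared reads. The posterior SD was 108 counts in animal 1 and 144 in animal 2, the same for both alpha genes. That was 0.811% and 0.597% of the alpha counts. The RSEM counts of each gene were not whole although their sum was.

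For the beta pair, Hbb-bs held 88.6% of the counts in animal 1 (87.9% to 89.3%) and 91.7% in animal 2 (91.2% to 92.3%) by RSEM, and 82.3% and 88.1% by kallisto. Here kallisto gave the larger share to the minor gene, Hbb-bt, whereas in the alpha pair it gave the larger share to the major gene. The RSEM intervals leave out the error of dividing reads here too. The posterior SD was 29.1 and 22.3 counts, smaller than in the alpha pair. Relative to the square root of the count of the minor gene it was 0.975 and 0.774 for Hbb-bt, and 1.58 and 1.52 for Hba-a2. RSEM counts that were not whole occurred in 4 of the 6 genes of the set with a mean of at least 100 counts, which are the adult globins, and in 18% of all such genes.

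**Figure D4:**
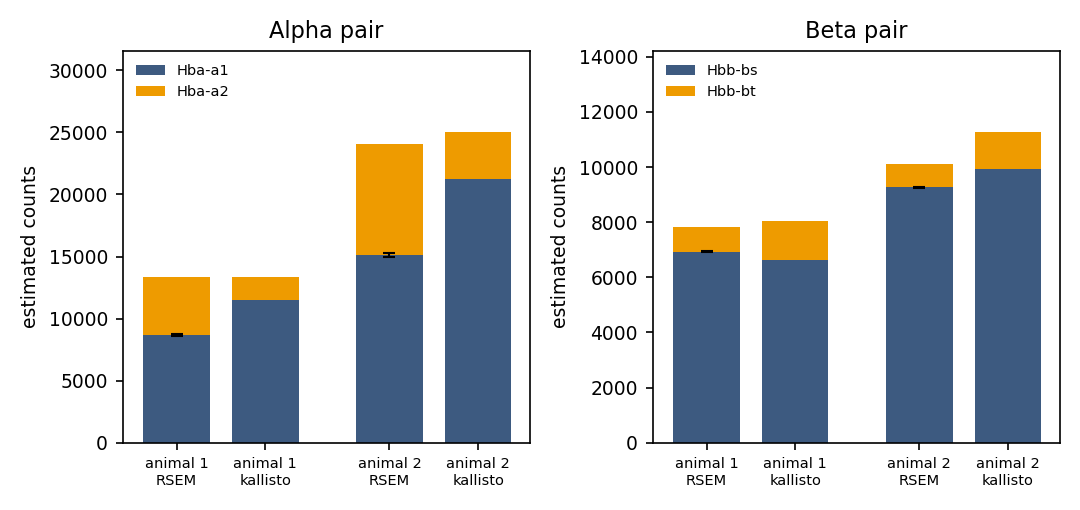
Estimated counts of each adult globin pair by animal and quantification, stacked by gene from 0; error bars, drawn for RSEM only, are the deposited posterior SD of the lower gene. The alpha stacks of one animal are close in height, 13350 and 13321 in animal 1, while the Hba-a1 part is 65.1% by RSEM and 86.3% by kallisto.

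By count, Hba-a2 was 2.45-fold lower and Hba-a1 1.36-fold higher in kallisto than in RSEM, and summed they were 1.02-fold higher. Hbb-bt was 1.61-fold higher, Hbb-bs 1.01-fold higher, and their sum 1.07-fold higher. The median of 12171 genes was 1.11-fold higher, and 3.1% of genes were over 2-fold apart, as Hba-a2 alone was among 6 genes of the set. Summing the paralogs therefore removed most of the difference between the counts, and with it the 2.45-fold gap of Hba-a2.

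The levels in TPM differed more than the counts. The alpha sum was 1565 and 2647 TPM in kallisto, 2.03-fold higher than in RSEM (log2 1.02 ± 0.17, n = 2), and the beta sum 1117 and 1283 TPM, 2.44-fold higher (log2 1.29 ± 0.18). Hba-a1 was 2.76-fold higher, Hbb-bs 2.36-fold and Hbb-bt 3.26-fold, but Hba-a2 only 1.02-fold. Of the 6 genes averaging at least 100 counts, 3 were over 2-fold apart in TPM, all higher in kallisto, against 18.7% over 2-fold apart and 16.6% higher in kallisto among all genes. Cygb was 1.68-fold, Alas2 1.47-fold, Ngb 1.45-fold and Mb 2.31-fold higher, beside a median of 1.62-fold over all genes. When TPM was rescaled to nuclear protein-coding genes, the alpha sum was 1.15-fold and the beta sum 1.38-fold higher, the median of all genes was 0.918-fold, and Hba-a2 was 1.73-fold lower.

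A TPM divides a count by an effective length, the number of places where a fragment can start, and the quantifications used different ones. In RSEM that length was the transcript length less 99 bases, which corresponds to a fragment of 100 bases. In kallisto it corresponded to fragments of 328 bases in animal 1 and 317 bases in animal 2. The full transcript of Hba-a2 thus had an effective length of 455 bases in RSEM and of 229 and 239 bases in kallisto, a ratio of 1.99 and 1.91. For Hba-a1 the ratio was 1.61 and 1.57, for Hbb-bs 1.76 and 1.69, and for Hbb-bt 1.61 and 1.56. For the longer Cygb transcript, of 2331 bases, it was 1.11 in each library. The short globin transcripts were thus divided by a smaller number in kallisto to a greater degree than Cygb was.

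Among the remaining transcripts, the quantifications also chose different models. A short coding model of Hbb-bs with an exon upstream of the usual start had 1.93 and 4 counts by RSEM and 359 and 158 counts by kallisto. The retained-intron model of Hbb-bs had 37 and 4.64 counts by RSEM and none by kallisto. The Ngb counts of animal 1 were placed by RSEM mostly on a transcript of 1611 bases (36 counts), and those of animal 2 all on one of 1616 bases (33 counts). Gene sums of Ngb, Alas2 and Mb were whole in RSEM, so their reads were not divided with another gene, while the choice of transcript within the gene was uncertain.

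Genes of red cells and of heme were described by lists chosen with earlier results known. Of the 13 red cell membrane genes, 7 had a mean of at least 10 counts, 4 of these were higher in animal 2, and their median log2 difference was 0.02 (all genes: -0.02). Epb41, Sptb and Aqp1, which tie the membrane to its skeleton or carry water and are made by other cells too, led the list at 20.6, 16.4 and 12 TPM. Slc4a1, the anion exchanger of red cells and also of kidney, had 11 and 25 counts, a ratio of 2.19 (1.07 to 5.06), though its TPM was 0.23 and 0.17. Rhag, chosen after its values were seen, had no count in either library. The summed level of the list was 51.1 and 56.9 TPM.

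Of the late erythroid genes with enough counts, 3 of 9 were higher in animal 2 (median -0.07). Prdx2, a peroxidase, led them at 231 TPM, followed by Bnip3l and Car2 at 64.8 and 10.5 TPM. Erythroid transcription factors were low: Zfpm1 at 5.24 TPM, Bcl11a at 1.07 TPM and Tal1 at 0.565 TPM led them, and 3 of 4 were higher in animal 2. Gata1, with 1 and 2 counts, Klf1, with 3 and 4 counts, and Gfi1b, with none, were chosen after their values were seen. Gata1, Klf1, Gfi1b and Rhag, which mark red cell precursors, were thus at or near 0 in libraries with a high level of adult globins.

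Heme synthesis genes were divided, with 6 of 10 higher in animal 2 and a median of 0.03. Alas1, the form of the first enzyme used outside the red cell line, stood at 789 and 519 TPM against the 5.33 and 8.6 TPM of Alas2. On 27662 and 17143 counts it was 1.63-fold higher in animal 1 (1.6 to 1.66), the opposite direction to Alas2. Fech, which inserts iron into heme, was 1.22-fold higher in animal 2 (1.16 to 1.28), and Urod had a ratio of 0.931 (0.862 to 1). Of the genes listed for globin and heme handling, 5 of 10 were higher in animal 2, with Cyb5r3, Lrp1 and Hp the most abundant at 136, 59 and 56.4 TPM. Hpx, the heme carrier hemopexin, was 1.96-fold higher in animal 1 (1.56 to 2.49). The 6 neighbours of the alpha cluster did not move with it: 1 was higher in animal 2, Nprl3, whose introns hold the alpha globin enhancers, at a ratio of 1.04 (0.947 to 1.15), and Rhbdf1 and Mpg had 0.75 and 0.509.

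Markers of other cells that moved between the libraries are given beside these differences. The list for brown adipocytes had 6 of 6 genes higher in animal 2, at a median log2 difference of 0.97 and a summed level of 653 and 1270 TPM. Ucp1, which uncouples mitochondria of brown fat, had 10561 and 21765 counts (2.04, 1.99 to 2.09), Cox8b a ratio of 1.88, Cidea one of 1.58, and Ppargc1a one of 4.52. Platelet and neutrophil genes with enough counts were higher in animal 2 in 3 of 4 cases, against 47.8% of all such genes. Their list had a summed level of 6.22 and 8.63 TPM. The neutrophil genes S100a8 and Ngp had 0 counts in animal 1 and 16 and 28 in animal 2. Pf4 of platelets had 50 and 34 counts. Itga2b, counted among the 3, had 42 and 43 counts, a ratio of 1.01 (0.646 to 1.59). The part of brown fat and of other blood cells in the globin difference was not tested. By kallisto counts the median log2 differences of the red cell membrane, heme synthesis and platelet and neutrophil lists were -0.02, -0.02 and -0.03. Spike-in scaling adds 0.20 to the RSEM median of every list, which turns that of the late erythroid genes above 0. The same shift turns the median of all 12171 genes averaging at least 100 counts above 0, to 0.19. No list thus moved relative to all genes under that scaling.

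For the globins of other tissues, the markers of those tissues were set beside them. All 9 neuronal genes were lower in animal 2, with a median of -0.46 (Snap25 0.761, Eno2 0.838, Stmn2 0.718 and Nefm 0.498), beside a ratio of 0.762 for Ngb. Of 9 fibroblast genes, 6 were higher in animal 2 (median log2 difference 0.2; Dcn 1.15, Col3a1 0.695 and Col1a2 0.839), beside a ratio of 0.94 for Cygb. Skeletal and heart muscle genes were low, with 2 of 11 and 2 of 8 reaching a mean of 10 counts. Pygm, at 14.8 TPM, was the highest of the first list, ahead of Mylpf and Actn3 at 0.74 and 0.185 TPM, and Tnnt2, at 1.26 TPM, that of the second, ahead of Tnni3 and Myl7 at 0.46 and 0.265 TPM. The heart genes Myh6, Myl2 and Nppa, chosen after their values were seen, had no count in either library. Of 9 adrenal genes, 3 stood higher in animal 2 (median -0.22), and the cortex genes did not move alike. The 3 were the cortex genes Star at 1.11, Hsd3b1 at 1.17 and Cyp11b1 at 1.22. Cyp11a1, at 2394 TPM the third of that list, had a ratio of 0.861 and the cortex factor Nr5a1 one of 0.986. All 4 medulla genes were lower in animal 2, Chga at 0.796, Th at 0.821, Dbh at 0.806 and Pnmt at 0.672, the direction of the neuronal genes; Cyp11b1, Nr5a1, Chga, Th and Dbh were chosen after their values were seen. The part of the medulla in the value of Ngb was not tested.

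**Figure D5:**
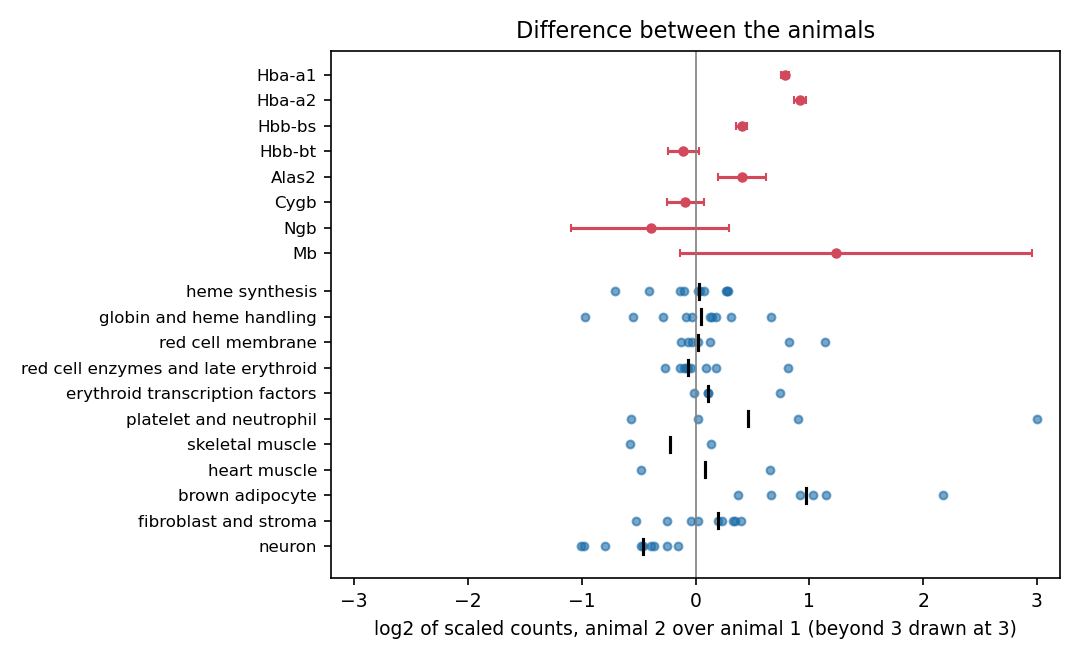
Log2 of scaled counts in animal 2 over animal 1, with the 95% counting interval for genes of the set (red) and, below, each gene of a list with a mean of at least 10 counts (blue) with the list's median as a black bar; values beyond 3 are drawn at 3. Hba-a1 and Hba-a2 lie at 0.78 and 0.92, the brown adipocyte genes all lie above 0 with a median of 0.97, and the neuronal genes all lie below 0 with a median of -0.46.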

How the data were processed

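Total RNA from adrenal gland was sequenced in 2 libraries of 1 group, on ribosomal RNA reduced material with ERCC spike-ins per the labels. The labels conflict on the animals: the library descriptions give the same animal number, the biosample descriptions different ones, and the donor entry is shared. Counts of the libraries differed by far more than sampling noise (chi-square per degree of freedom of 77.2 over 17319 genes), so they are not 1 library deposited again; this does not tell separate animals from separate libraries of 1 animal.

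Per the file headers, the authors deposited RSEM gene and transcript tables and kallisto transcript tables, on mm10 with GENCODE M21. The aligner, versions and settings, including strand, are not given in the sources used here. Expected counts and estimated counts, as the authors deposited them, are reads divided among transcripts. TPM values, also deposited by the authors, are levels per length with a fixed sum over all rows. The deposited percent of gene TPM and the deposited posterior SD and other interval bounds were used as given.

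Kallisto values were summed per gene. For scaling, expected counts were rounded to whole numbers, with edgeR 4.0.16 (trimmed mean of M-values) and DESeq2 1.42.0 size factors in R 4.3.3, and used as deposited for ratios, with a prior of 0.5 counts. Intervals at 95% are exact Clopper-Pearson intervals of the split of counts. Rows that name no gene stayed out; spike-ins were 0.909% and 0.76% of all counts, and the other rows 1.68e-05% and 2.76e-06%. Genes were counted as called past 2-fold or 1.5-fold, from a mean of at least 100 counts, or 10 for lists. On simulated data for animal 2 over animal 1 without biological spread, with 55536 genes and 200 changed, 96.5% of intervals held the true ratio.

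Sequences are from GENCODE M21 transcripts and RefSeq promoters (GRCm38.p6), where 6 of 6 globin genes of the clusters matched. CAST alleles were not analysed here, so the division of reads within the pairs rests on the reference sequence. Genes named are all 10 of the set, the 3 highest in level and the largest ratio of each list, and the genes ranked next to the alpha and beta sums; with 2 libraries, likeness of pattern across samples cannot be measured. Some genes of the lists are not reported here, though the list counts include them. The genes and lists were chosen with earlier results of these data known.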

Additional observations from a re-analysis of the deposited data

How the results depend on the processing

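No paired analysis was possible because the labels give 1 group. The direction of the alpha and beta differences between the animals held under every scaling and quantification tried, and their size moved. For alpha the ratio was 2.05 with spike-in scaling, 1.71 with total counts, 1.99 as a TPM ratio and 1.63 from the full coding transcripts alone, an alternative chosen after seeing the data. For beta it was 1.47 with spike-in scaling, 1.23 with total counts, 1.37 as a TPM ratio and 1.35 from kallisto counts. DESeq2 size factors and priors of 0 and 5 counts moved neither beyond its counting interval. Mean levels of alpha and beta were 2106 and 1200 TPM in kallisto and 3099 and 1464 TPM when rescaled to nuclear protein-coding genes; over the libraries taken singly they ranged from 708 to 1413 and from 419 to 573 TPM. The alpha to beta ratio ranged from 1.69 to 2.47 over the libraries. The Hba-a1 share averaged 64% of RSEM counts (libraries 63% to 65.1%), 85.6% of kallisto counts and 58.4% of RSEM TPM. The Hbb-bs share averaged 90.2% of RSEM counts (libraries 88.6% to 91.7%) and 85.2% of kallisto counts. Kallisto over RSEM was 2.03 in TPM for alpha (libraries 1.87 to 2.21), but 1.15 rescaled to coding genes and 1.02 in counts. For beta it was 2.44 in TPM (libraries 2.24 to 2.66), but 1.38 rescaled and 1.07 in counts. Kallisto over RSEM changed side on rescaling for Alas2 (0.83), Cygb (0.952) and Ngb (0.821), and in counts for Ngb (0.996). For Hba-a2 it was 1.02 in TPM, within its spread of no difference, but 0.577 rescaled and 0.409 in counts. Genes over 2-fold apart between the animals numbered 167 from a mean of 100 counts, 914 from 10 and 3748 from 1, the lower filters letting in more genes of few counts; those over 2-fold apart in TPM between the quantifications numbered 2274 and, from 10 counts, 3809. For single genes, 41 animal ratios stayed within their error under an alternative and 15 did not. The causes were not tested. Depth limits Mb and Ngb most, at 6 to 43 counts.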
